A study of Homo sapiens with 3 samples.

Results

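The genes described here build, fold and clear proteins of the endoplasmic reticulum (ER), together with the sensors and factors of the IRE1 and ATF6 arms of the unfolded protein response. They were a named list of 41 genes, taken by symbol from a table of 60664 gene identifiers, by a rule that states no measured value. The list held 12 chaperones and cochaperones, 8 enzymes of disulfide formation, 7 sensors and transcription factors, 11 genes of ER-associated degradation (ERAD) and 3 genes of protein entry into and export from the ER. Levels are in CPM, each count taken relative to the scaled total of its library. Genes with a CPM of 1 or more somewhere among the 3 libraries were treated as measured, which held for 40 of the 41 and for 14792 genes in all.

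RNA was sequenced from Caco-2, a line of human colon carcinoma cells labelled WT in genotype, with 1 library in each of 3 groups. Cells of the DSS with polydatin group received 30 µM polydatin, a glucoside of resveratrol, for 2 h and then polydatin together with 3% dextran sulfate sodium (DSS) for 8 h. Cells of the DSS group received 3% DSS for 8 h, and control cells received neither agent. The title of the series names ferroptosis in DSS colitis as the study's subject, and the groups of its design text given erastin or Fer-1 were not analysed here.

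Proteins that enter the ER are folded by chaperones and joined by disulfide bonds, and those that fail to fold are passed back to the cytosol for degradation. When unfolded proteins build up, the membrane sensors IRE1 (gene ERN1), ATF6 and PERK (gene EIF2AK3) respond. IRE1 splices XBP1 mRNA so that it encodes an active transcription factor, ATF6 is cut in the Golgi to release one, and PERK phosphorylates the initiation factor eIF2α, which lowers translation while favouring the factor ATF4. Intestinal secretory cells make large amounts of secreted protein and are known for their reliance on IRE1 and XBP1.

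The libraries held 16667622 counts in DSS with polydatin, 18825914 in DSS and 18695613 in control. The 41 genes took 0.974%, 0.938% and 0.892% of these counts in the same order. Of 14 epithelial markers 13 were measured, and all 14 had a summed level of 8128 CPM in DSS with polydatin, 9959 CPM in DSS and 8250 CPM in control. The unmeasured marker was KRT20, at 8, 9 and 10 counts. KRT8 and KRT18 carried most of the sum, and SI was called lower than in control both in DSS with polydatin (0.182) and in DSS (0.198). CDX2 was called lower in DSS with polydatin, at 0.665 against DSS and 0.533 against control, and ALPI higher at 1.64 against control. Leukocyte markers summed to 7.46, 9.82 and 4.74 CPM, with PTPRC at 0 in all 3 libraries. LYZ had 39, 83 and 14 counts, called higher in DSS than in control (5.81) and lower in DSS with polydatin than in DSS (0.499). LYZ and ITGAM were called higher in DSS with polydatin than in control, at 2.90 and 1.79. Endothelial markers summed to 13.5, 17.4 and 24.9 CPM, with KDR at 0 in all 3 libraries. The endothelial sum followed PECAM1, while VWF had 68, 22 and 9 counts. PECAM1 was called lower in DSS than in control (0.657), and in DSS with polydatin than in DSS (0.594) and control (0.390). VWF was called higher in the same comparisons, at 2.40, 3.28 and 7.87. Fibroblast markers summed to 52.0, 45.0 and 49.3 CPM, and COL1A1 carried most of the sum. LUM had 27, 21 and 3 counts. Its ratio to control was 6.86 for the DSS library and 9.37 for the library with polydatin, both called higher. PDGFRB, at 93, 74 and 138 counts, was called lower in DSS than in control (0.526). Mitochondrially encoded transcripts held 4.34%, 4.77% and 5.31% of counts. The part of these differences in the results was not tested. In a bulk library, fewer cells of a type and less RNA per cell cannot be told apart.

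With 1 library per group there was no replicate spread, so no difference given here was tested and every ratio compares libraries. The values in parentheses after a ratio are exact 95% intervals from the counts of both libraries. They describe counting error only and leave out the spread between cultures and between library preparations. Without molecular identifiers the reads cannot be taken as separate molecules, so the intervals may be too narrow even for counting error. A gene was called higher or lower when its ratio reached 1.5-fold and its interval excluded 1. The DSS library stands in 2 of the comparisons, and so do the control library and the library of DSS with polydatin, so the 3 comparisons are not independent.

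Few of the genes differed by as much as 1.5-fold, and the central chaperone HSPA5 was nearly level across the libraries. In DSS against control, 2 of 40 measured genes were higher (5.00%), the oxidase gene ERO1B and the ubiquitin ligase gene SYVN1, while 9.45% of all measured genes were higher by the same rule. The 1 lower gene was AGR3, which is 2.50% of the 40 beside 5.81% of all genes. Between DSS with polydatin and DSS, 2 of 40 were higher (5.00%), ERN1 and CREB3L1, beside 5.39% of all genes, and 0 of 40 were lower beside 2.60%. Against control, 6 of 40 were higher in DSS with polydatin (15.0%), which were DNAJB9, SDF2L1, ERO1B, ERN1, SYVN1 and EDEM2, beside 16.0% of all genes. AGR3 was again the lower gene (2.50%), beside 12.4% of all genes. The shares of higher genes were thus below or near those of all measured genes.

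Low counts give imprecise ratios, so the calls were counted again among genes of at least 10 CPM in 1 library, which left 36 members and 10084 genes. SYVN1 was then the 1 higher member in DSS against control, beside 7.43% of all genes, and 0 were lower beside 4.34%. ERN1 was the 1 higher member in DSS with polydatin against DSS, beside 2.35%, and 0 were lower beside 2.32%. All of the higher members but ERO1B remained in DSS with polydatin against control, where 5 members were higher beside 12.6%, and 0 were lower beside 13.0%. At this level the highest share, 5 of 36, stood close to its background.

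Over the 40 measured members, the median log2 ratio was 0.10 in DSS against control, 0.08 in DSS with polydatin against DSS and 0.17 in DSS with polydatin against control. Over all measured genes the medians were −0.01, −0.01 and −0.02. Ratios lay above 1 for 29 of the 40 members in the first comparison, 26 in the second and 31 in the third. Of all 14792 measured genes, 7319, 7162 and 7187 lay above 1 in the same order. Ratios within 0.2 of 0 on the log2 scale were found for 22 of the 40 members in DSS against control, 26 in DSS with polydatin against DSS and 18 in DSS with polydatin against control, which is 55.0%, 65.0% and 45.0%, beside 41.8%, 48.0% and 27.6% of all genes. With counts scaled by library totals alone, the median of all genes in DSS with polydatin against control moved by 0.11 to 0.09, and that of the members moved to 0.27. That scaling also moved the split of all genes to 7.61% higher and 1.57% lower in DSS with polydatin against DSS, and to 19.9% higher and 8.33% lower in DSS with polydatin against control.

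**Figure D1:**
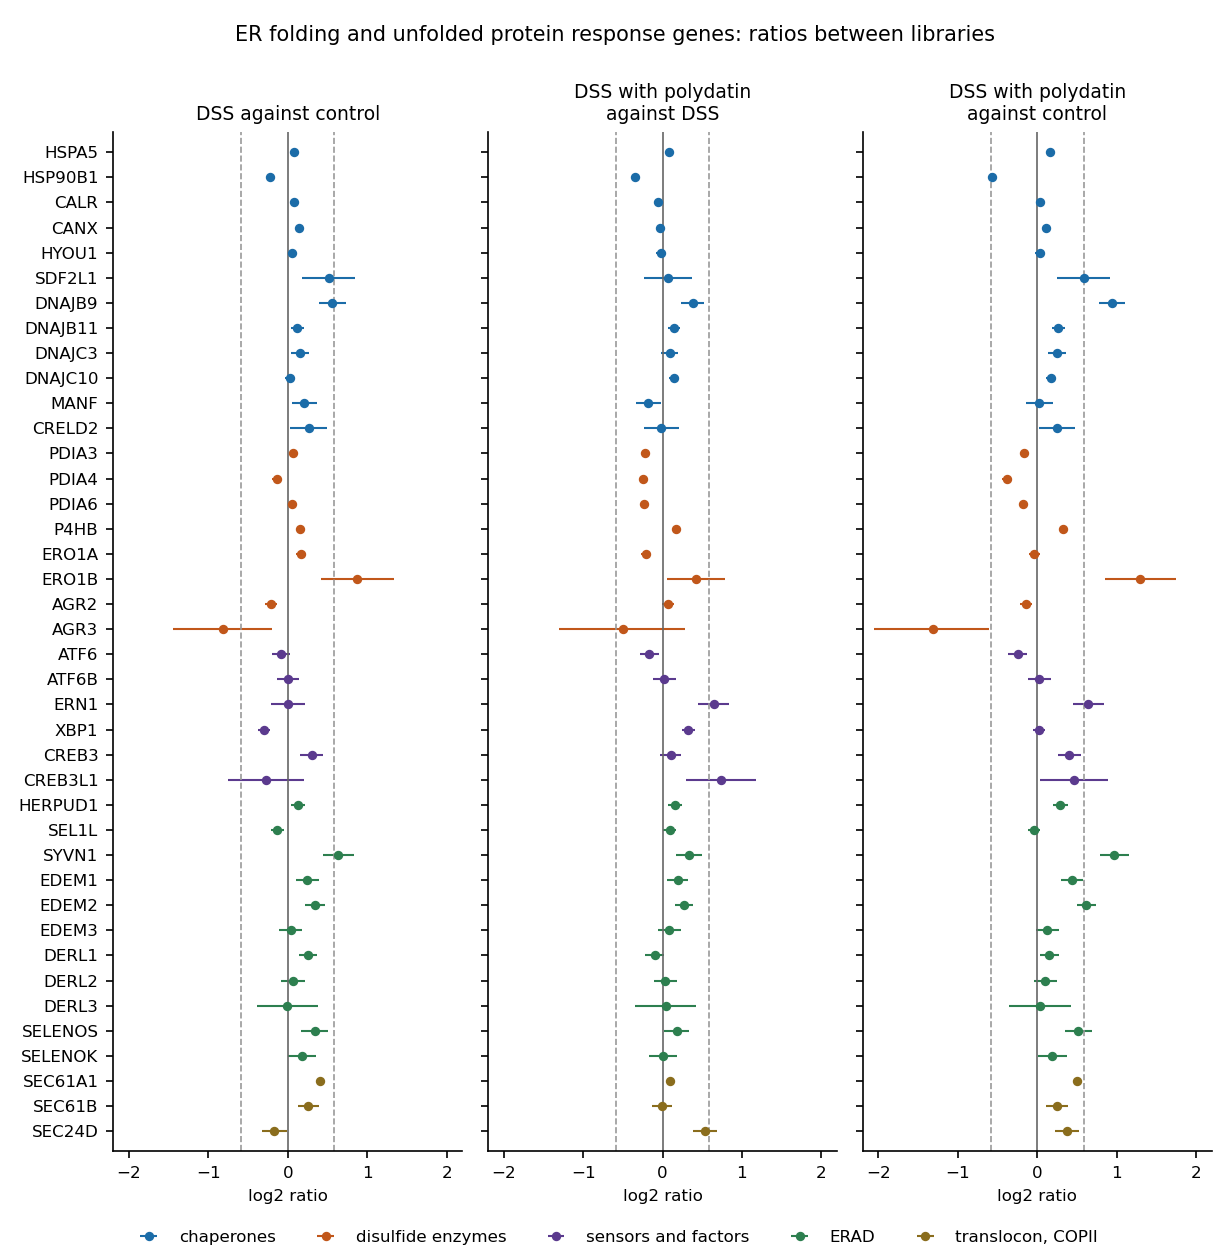
Ratio of TMM-scaled counts between libraries for the 40 measured genes, on a log2 axis, in 3 comparisons; points are ratios, bars are exact 95% counting intervals and dashed lines mark 1.5-fold. Most points lie between the dashed lines, with ERO1B to the right and AGR3 to the left in both comparisons with control.

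Many genes of the response carry ER stress elements close to their start, so the promoter windows of the members were searched and a few are shown. The element called ERSE was searched as CCAAT and CCACG separated by 9 bases, ERSE-II as ATTGG and CCACG separated by 1 base, and the UPR element (UPRE) as TGACGTGG, each on both strands. The windows are those of RefSeq on GRCh38.p14 and run from 250 bases before each annotated start to 50 after it. The 250 bases before the start are printed 5′ to 3′ along the gene's strand, with an ERSE or ERSE-II match in capitals. HSPA5 is shown as the classic target of ATF6 and XBP1 as the factor gene of the IRE1 arm. HERPUD1 is shown for its ERSE-II. ERO1B and SYVN1 are the genes called higher in both comparisons with control, and only the window of ERO1B holds a match.
HSPA5: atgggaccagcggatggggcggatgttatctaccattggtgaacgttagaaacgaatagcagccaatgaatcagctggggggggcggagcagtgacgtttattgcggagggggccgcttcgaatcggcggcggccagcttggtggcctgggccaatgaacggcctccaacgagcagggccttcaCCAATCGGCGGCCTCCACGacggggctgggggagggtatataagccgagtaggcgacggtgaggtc
XBP1: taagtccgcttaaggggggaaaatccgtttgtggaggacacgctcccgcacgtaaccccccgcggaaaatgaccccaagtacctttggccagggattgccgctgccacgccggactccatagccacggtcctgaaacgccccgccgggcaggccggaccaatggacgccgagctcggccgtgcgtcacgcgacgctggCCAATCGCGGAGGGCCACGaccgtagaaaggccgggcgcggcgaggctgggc
HERPUD1: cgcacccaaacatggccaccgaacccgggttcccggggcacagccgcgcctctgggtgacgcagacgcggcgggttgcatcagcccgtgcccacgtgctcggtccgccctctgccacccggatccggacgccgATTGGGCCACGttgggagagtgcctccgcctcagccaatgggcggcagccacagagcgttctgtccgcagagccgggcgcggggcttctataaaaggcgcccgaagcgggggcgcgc
ERO1B: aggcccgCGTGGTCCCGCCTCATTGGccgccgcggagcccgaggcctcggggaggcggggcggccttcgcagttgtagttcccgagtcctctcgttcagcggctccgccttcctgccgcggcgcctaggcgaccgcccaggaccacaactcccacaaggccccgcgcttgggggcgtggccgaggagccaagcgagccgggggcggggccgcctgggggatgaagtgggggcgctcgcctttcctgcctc
SYVN1: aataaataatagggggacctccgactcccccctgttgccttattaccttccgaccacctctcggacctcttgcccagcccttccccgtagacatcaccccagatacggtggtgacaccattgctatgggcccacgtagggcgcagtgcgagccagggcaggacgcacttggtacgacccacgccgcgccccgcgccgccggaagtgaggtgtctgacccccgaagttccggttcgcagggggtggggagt
These stretches lie at chr9:125241344-125241593 (minus strand) for HSPA5, chr22:28800570-28800819 (minus) for XBP1, chr16:56931892-56932141 (plus) for HERPUD1, chr1:236281959-236282208 (minus) for ERO1B and chr11:65134520-65134769 (minus) for SYVN1. In the HSPA5 window the ERSE lies 66 to 48 bases before the start, and in the XBP1 window 52 to 34 bases before it. A window at another annotated start of XBP1 held no match. The ERSE-II of HERPUD1 lies 117 to 107 bases before the start. The ERSE of ERO1B lies 243 to 225 bases before the start, in the reverse orientation.

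An ERSE was found in the windows of 8 of the 36 members with a window (HSPA5, HSP90B1, CALR, CANX, CRELD2, PDIA6, ERO1B and XBP1), and in 27 of all 35116 windows (0.0769%). ERSE-II was found in 3 members (HERPUD1, HYOU1 and SDF2L1) and in 19 of all windows (0.0541%). UPRE was found in 2 members (DNAJC10 and HYOU1) and in 256 windows (0.729%), and in HYOU1 it overlaps an ERSE-II match. Counted by window, ERSE was in 10 of the 43 member windows, ERSE-II in 3 and UPRE in 2. Among 103 genes with a window from the other lists described below, UPRE was found in 11, and ERSE and ERSE-II in 0. The elements were defined on genes such as HSPA5, so their presence in the members' promoters is a description of known genes. SEC24D, PDIA3, ERN2, DERL3 and DERL1 had no window. The 11 members with an ERSE or ERSE-II had a median ratio of 1.06 in DSS against control, 0.991 in DSS with polydatin against DSS and 1.08 in DSS with polydatin against control. The 25 members with a window and neither element had medians of 1.11, 1.07 and 1.19. The medians of the genes with an element were thus no further from 1 than those of the genes without, and this difference was not tested.

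**Figure D2:**
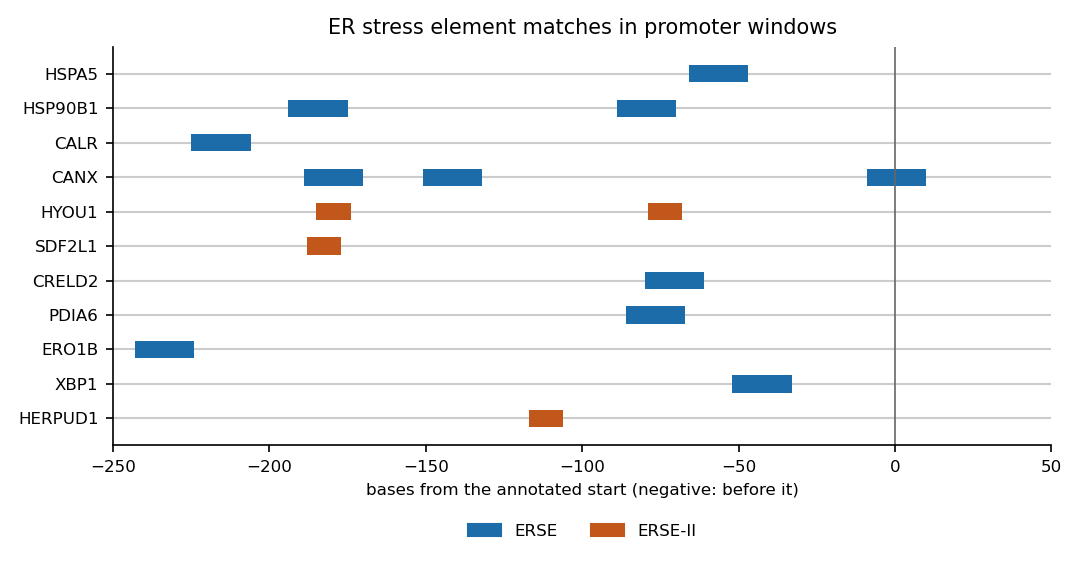
Positions of ERSE and ERSE-II matches in the promoter windows of the 11 members that hold one, in bases from the annotated start, with the searched window as a grey line. CANX has 3 windows from 3 annotated starts that share 1 genomic match, so its match is drawn once per start.

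Of the chaperones, HSPA5 (BiP, the ER member of the Hsp70 family; chr9:125234853-125241330) had 17812 counts in DSS with polydatin, 17884 in DSS and 16601 in control, or 1021, 965 and 914 CPM. DSS with polydatin was highest and control lowest, with narrow steps between them. The ratio was 1.06 (1.03 to 1.08) in DSS against control, 1.06 (1.04 to 1.08) in DSS with polydatin against DSS and 1.12 (1.09 to 1.14) in DSS with polydatin against control. HSP90B1 (GRP94, the ER Hsp90; chr12:103930107-103953645) ran the other way, with 16067 counts in DSS with polydatin, 21645 in DSS and 24788 in control. Its ratio was 0.789 (0.773 to 0.805) in DSS with polydatin against DSS and 0.675 (0.662 to 0.689) in DSS with polydatin against control, just inside the 1.5-fold limit. With DESeq2 size factors the ratio against control was 0.661 and HSP90B1 was called lower. Both genes are well-known targets of the ATF6 arm, and in these libraries they lay on opposite sides of 1.

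DNAJB9 (ERdj4, a J-domain cochaperone of BiP that holds IRE1 inactive; chr7:108569568-108574850) had 879 counts in DSS with polydatin, 717 in DSS and 477 in control. Its level was 50.4 CPM in DSS with polydatin, 38.7 in DSS and 26.3 in control, so the libraries ran in the same order as for HSPA5 with wider steps. DNAJB9 was higher in DSS with polydatin than in control, with a ratio of 1.92 (1.71 to 2.15). The ratio was 1.30 (1.18 to 1.44) in DSS with polydatin against DSS and 1.47 (1.31 to 1.66) in DSS against control. The last reached 1.59 and passed the rule once a trend of the ratios with GC content and length was taken out. DNAJB9 overlaps PNPLA8 and THAP5 on the opposite strand, and reads of overlapping genes cannot be told apart where the strand setting is unknown. PNPLA8 had 975, 930 and 865 counts and THAP5 508, 509 and 577 in DSS with polydatin, DSS and control. The part of shared reads in the values of DNAJB9 was not tested.

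SDF2L1, a partner of the BiP cycle that acts with J-domain proteins (chr22:21642261-21644298), had 186 counts in DSS with polydatin, 188 in DSS and 129 in control. The DSS libraries, with and without polydatin, were level and control was lower. SDF2L1 was called higher in DSS with polydatin than in control at a ratio of 1.501 (1.19 to 1.89). That call sits on the threshold: it was lost with DESeq2 size factors at 1.47, with 2 counts added to each library at 1.49 and with the GC and length trend removed at 1.08. The ratio was 1.05 (0.854 to 1.29) in DSS with polydatin against DSS and 1.43 (1.14 to 1.80) in DSS against control.

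The other 8 chaperones and cochaperones were never called. They are the lectin chaperones CALR and CANX, the nucleotide exchange factor HYOU1, the J-domain proteins DNAJB11, DNAJC3 and DNAJC10, and the secreted stress proteins MANF and CRELD2. Their ratios ran between 1.02 and 1.20 in DSS against control and between 0.883 and 1.11 in DSS with polydatin against DSS. Between DSS with polydatin and control they ran from 1.02 to 1.20. CANX had 1804, 1851 and 1678 CPM in DSS with polydatin, DSS and control, and CALR had 774, 801 and 758 CPM. Per kilobase of transcript these were the most abundant members in DSS with polydatin, at 424 CPM per kb for CANX and 406 for CALR, and HSP90B1 had the highest level per kb in control at 478.

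Over the 12 chaperones and cochaperones, 0 were called in either direction in DSS against control, beside 9.45% of all genes higher and 5.81% lower. In DSS with polydatin against DSS 0 were called as well, beside 5.39% higher and 2.60% lower. In DSS with polydatin against control 2 were higher (16.7%, beside 16.0% of all genes). The median log2 ratios of the 12 were 0.13, 0.03 and 0.17 in these 3 comparisons. In DSS against control 11 of the 12 ratios lay above 1, with HSP90B1 as the exception, beside 7319 of all 14792 measured genes.

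**Figure D3:**
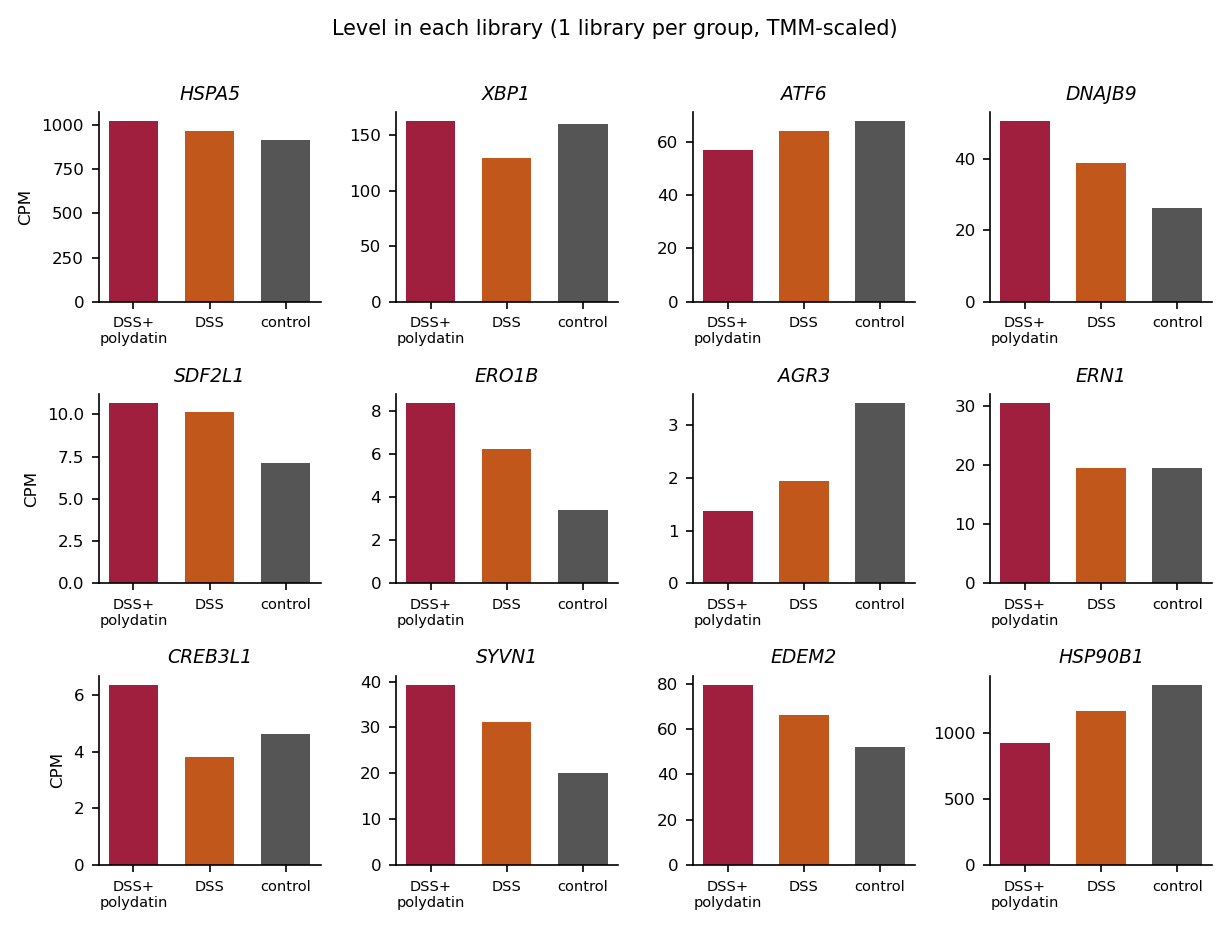
Level in CPM in each library for 12 members, with bars from 0 in the order DSS with polydatin, DSS and control; there is 1 library per group and no error bar. DNAJB9, ERO1B, SYVN1 and EDEM2 step down in that order, as do HSPA5 and SDF2L1 with a narrow first step. AGR3, HSP90B1 and ATF6 step up. ERN1 stands apart in DSS with polydatin (30.5 CPM, against 19.5 in DSS and 19.5 in control).

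Among the disulfide enzymes, ERO1B (chr1:236215555-236281985), an oxidase that recharges protein disulfide isomerases, had 146 counts in DSS with polydatin, 116 in DSS and 62 in control. This is 8.37, 6.26 and 3.41 CPM, a low level with wide intervals. ERO1B was higher in DSS than in control at 1.83 (1.34 to 2.54) and in DSS with polydatin than in control at 2.45 (1.81 to 3.36), the highest ratio of any member. Between DSS with polydatin and DSS it was 1.34 (1.04 to 1.72). Its relative ERO1A, the widely expressed form, was far more abundant per kilobase of transcript, at 39.3 CPM per kb against 1.83 for ERO1B in DSS with polydatin. ERO1A had 208 CPM in DSS with polydatin, 240 in DSS and 213 in control, with 0 calls.

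The protein disulfide isomerases PDIA3, PDIA4 and PDIA6 were all somewhat lower in DSS with polydatin than in DSS without passing the rule. PDIA3 had 497 CPM in DSS with polydatin, 581 in DSS and 557 in control. PDIA4 had 231, 273 and 301 CPM, and PDIA6 had 503, 589 and 568 CPM, in the same order. Together with ERO1A at 0.868, their ratios in DSS with polydatin against DSS lay between 0.847 and 0.868. P4HB (PDI itself, which is also a subunit of collagen prolyl hydroxylase) lay on the other side of 1, with 817 CPM in DSS with polydatin, 723 in DSS and 650 in control, a ratio of 1.13 (1.10 to 1.16) in DSS with polydatin against DSS. A pseudogene of PDIA3, PDIA3P1, was listed with 509, 578 and 553 counts, so reads of near-identical sequence may have been split between them.

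AGR2 and AGR3 are isomerase-like proteins of secretory epithelium, and AGR2 is known to be needed for mucin production in mouse goblet cells. AGR3 (chr7:16859405-16881987) had 24 counts in DSS with polydatin, 36 in DSS and 62 in control, and was lower in DSS than in control at 0.569 (0.367 to 0.872). It was also lower in DSS with polydatin than in control at 0.403 (0.241 to 0.655), and its ratio in DSS with polydatin against DSS was 0.708 (0.404 to 1.22). AGR2 was about level, with 168 CPM in DSS with polydatin, 159 in DSS and 184 in control. Of 8 goblet markers 4 were measured, and all 8 summed to 13.4 CPM in DSS with polydatin, 11.6 in DSS and 7.65 in control. The mucin gene MUC2 had 4, 2 and 0 counts in these libraries, FCGBP had 83, 62 and 3, and CLCA1 had 18, 18 and 1. TFF3 had 34, 41 and 47 counts, stepping the same way as AGR3 but with 0 calls, and ZG16 was about level at 92, 87 and 88. The part of these markers in the values of AGR3 was not tested.

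Of the 8 disulfide enzymes, 1 was higher and 1 lower in each comparison with control. Each such gene is 12.5% of the list, beside 9.45% of all genes higher and 5.81% lower in DSS against control. In DSS with polydatin against control, 16.0% of all genes were higher and 12.4% lower. In DSS with polydatin against DSS 0 of the 8 were called, beside 5.39% of all genes higher and 2.60% lower. The median log2 ratio of the 8 was 0.06 in DSS against control, −0.21 in DSS with polydatin against DSS and −0.15 in DSS with polydatin against control.

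Of the sensors, ERN1 (IRE1α, kinase and RNase; chr17:64039142-64130819) had 531 counts in DSS with polydatin, 361 in DSS and 354 in control. Only the library with polydatin stood apart, at 30.5 CPM against 19.5 in DSS and 19.5 in control. ERN1 was higher in DSS with polydatin than in DSS at 1.56 (1.36 to 1.79) and than in control at 1.56 (1.36 to 1.79), and its ratio in DSS against control was 0.999 (0.861 to 1.16). Both calls were lost with the GC and length trend removed, at 1.49 against DSS and 1.40 against control. ERN2, the paralog found in goblet cells and other mucous epithelium, had 0 counts in all 3 libraries, which allows a level of up to 0.172 CPM in DSS with polydatin, 0.162 in DSS and 0.165 in control.

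XBP1 (chr22:28794555-28800597), the mRNA that IRE1 splices, had 2837 counts in DSS with polydatin, 2406 in DSS and 2907 in control. DSS was the low library, and the other two were nearly equal at 163 CPM in DSS with polydatin and 160 in control, against 130 in DSS. The ratio was 1.25 (1.19 to 1.32) in DSS with polydatin against DSS, 0.811 (0.768 to 0.857) in DSS against control and 1.02 (0.965 to 1.07) in DSS with polydatin against control. None of these reached 1.5-fold. Counts per gene do not separate spliced from unspliced XBP1 mRNA, so they give no reading of IRE1 activity.

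ATF6 (chr1:161766294-161964070), the sensor that becomes a transcription factor when cut, had 992 counts in DSS with polydatin, 1182 in DSS and 1227 in control. Its level was lowest in DSS with polydatin at 56.9 CPM, against 63.8 in DSS and 67.6 in control. The ratio was 0.842 (0.774 to 0.916) in DSS with polydatin against control, short of the rule. Its relative ATF6B had 44.8, 44.2 and 44.1 CPM in DSS with polydatin, DSS and control, the flattest of the sensors. The cleavage that activates either protein leaves no trace in gene counts.

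CREB3 and CREB3L1 are membrane-bound factors cut in the same way as ATF6. CREB3L1 (OASIS; chr11:46277661-46321422) had 111 counts in DSS with polydatin, 71 in DSS and 84 in control. It was higher in DSS with polydatin than in DSS at 1.66 (1.22 to 2.27), a call lost at 1.49 with the GC and length trend removed. Its ratio was 0.828 (0.595 to 1.15) in DSS against control and 1.38 (1.03 to 1.85) in DSS with polydatin against control. CREB3 had 49.6 CPM in DSS with polydatin, 46.3 in DSS and 37.6 in control, with ratios up to 1.32 and 0 calls. Of the 6 measured sensors and factors, 0 were called in DSS against control, beside 9.45% of all genes higher and 5.81% lower. In DSS with polydatin against DSS 2 were higher (33.3%, beside 5.39% of all genes). In DSS with polydatin against control 1 was higher (16.7%, beside 16.0%). The median log2 ratios were −0.04, 0.21 and 0.21. Both calls against DSS, ERN1 and CREB3L1, are the ones lost with the trend removed.

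Among the ERAD genes, SYVN1 (HRD1, the ubiquitin ligase of the retrotranslocation complex; chr11:65121780-65134533) had 685 counts in DSS with polydatin, 577 in DSS and 364 in control. Levels were 39.3 CPM in DSS with polydatin, 31.1 in DSS and 20.0 in control. SYVN1 was higher in DSS than in control at 1.55 (1.36 to 1.78) and in DSS with polydatin than in control at 1.96 (1.72 to 2.23), and its ratio was 1.26 (1.13 to 1.41) in DSS with polydatin against DSS. The call in DSS against control was lost at 1.39 with the GC and length trend removed. SYVN1 overlaps FAU on its own strand and MRPL49 on the other. FAU had 794 counts in DSS with polydatin, 950 in DSS and 843 in control, and MRPL49 had 1036, 1144 and 1107. The part of shared reads in the values of SYVN1 was not tested.

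EDEM2 (chr20:35115357-35147364), which starts the mannose trimming that marks glycoproteins for degradation, had 1388 counts in DSS with polydatin, 1225 in DSS and 944 in control. It was called higher in DSS with polydatin than in control at 1.53 (1.41 to 1.66), and its ratios were 1.20 (1.11 to 1.30) in DSS with polydatin against DSS and 1.27 (1.17 to 1.39) in DSS against control. The call was lost at 1.45 with the GC and length trend removed, and with DESeq2 size factors, where the ratio fell just short of 1.5. Its relatives had smaller ratios in DSS with polydatin against control, with 1.35 for EDEM1 and 1.09 for EDEM3.

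SEL1L, the adaptor that holds SYVN1 in its complex, had 144 CPM in DSS with polydatin, 135 in DSS and 148 in control, and so did not run with SYVN1. HERPUD1, a scaffold of the same complex and the holder of the ERSE-II shown above, had 128, 115 and 105 CPM in DSS with polydatin, DSS and control, a ratio of 1.22 (1.15 to 1.30) in DSS with polydatin against control. SELENOS, which recruits the ATPase VCP to the complex, had 39.1 CPM in DSS with polydatin, 34.6 in DSS and 27.3 in control, with a ratio of 1.43 (1.27 to 1.61) in DSS with polydatin against control. With total-count scaling this became 1.54 and passed the rule. The derlins DERL1, DERL2 and DERL3, membrane parts of the exit channel, had ratios between 0.933 and 1.19 over the 3 comparisons, and SELENOK, a membrane selenoprotein of the derlin complexes, between 1.00 and 1.14. Over the 11 ERAD genes 1 was higher in DSS against control (9.09%, beside 9.45% of all genes). In DSS with polydatin against DSS 0 were higher, beside 5.39%. In the third comparison, DSS with polydatin against control, 2 were higher (18.2%, beside 16.0%). In the 3 comparisons 0 of the 11 were lower, beside 5.81%, 2.60% and 12.4% of all genes. The median log2 ratios of the 11 were 0.18, 0.09 and 0.19.

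The last 3 members move proteins into and out of the ER. SEC61A1, the channel subunit of the translocon, had 6866 counts in DSS with polydatin, 6819 in DSS and 5036 in control. Its level was 394 CPM in DSS with polydatin and 368 in DSS, against 277 in control, and it passed no rule at 1.42 (1.37 to 1.47) in DSS with polydatin against control or 1.33 (1.28 to 1.38) in DSS against control. With total-count scaling the first became 1.53 and was called higher. SEC61A1 overlaps RUVBL1 on the opposite strand, which had 733 counts in DSS with polydatin, 1365 in DSS and 1860 in control. SEC61B, a small subunit of the channel, had 56.5, 56.9 and 47.6 CPM in DSS with polydatin, DSS and control.

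SEC24D, a cargo adaptor of the COPII coat, had 827 counts in DSS with polydatin, 605 in DSS and 666 in control, so the library with polydatin was the high one. Its ratio in DSS with polydatin against DSS was 1.45 (1.31 to 1.62), which became 1.54 with total-count scaling and was then called higher. In DSS against control the ratio was 0.890 (0.796 to 0.995).

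Another 119 genes of the same machinery and of the PERK arm were counted beside the members. Of 29 other folding genes 26 were measured, and 1 was higher in DSS with polydatin against control, QSOX1, a sulfhydryl oxidase, at 1.60 (1.43 to 1.79). Of 21 other ERAD genes 1 was higher in that comparison, NPLOC4, a cofactor of VCP, at 1.54 (1.47 to 1.62). Of 22 other genes of the translocon, signal peptidase and oligosaccharyl transferase 1 was lower, TRAM1, a membrane protein beside the translocon, with 604 CPM in DSS with polydatin, 579 in DSS and 934 in control. TRAM1 was lower in DSS than in control at 0.620 (0.605 to 0.635) and in DSS with polydatin than in control at 0.647 (0.631 to 0.663). For these lists the shares called higher in DSS with polydatin against control were 3.85%, 4.76% and 0%, beside 16.0% of all genes. TRAM1 is 4.55% of its list, beside 5.81% of all genes lower in DSS against control and 12.4% in DSS with polydatin against control. The 3 lists held 0 other calls in the 3 comparisons. Over all genes 9.45% were higher in DSS against control, and 5.39% were higher and 2.60% lower in DSS with polydatin against DSS. With the GC and length trend removed the calls in DSS with polydatin against control were lost, at 1.31 for QSOX1, 1.42 for NPLOC4 and 0.702 for TRAM1, and that of TRAM1 was also lost with total-count scaling at 0.697.

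Of 19 other genes of COPII transport and retrieval 2 were higher in DSS with polydatin against control (10.5%, beside 16.0% of all genes), the COPII adaptor gene SEC24A at 1.70 (1.61 to 1.79) and KDELR3 at 1.84 (1.66 to 2.04). KDELR3, a receptor that returns escaped ER proteins, was also higher in DSS with polydatin than in DSS at 1.57 (1.43 to 1.74), with 58.7 CPM in DSS with polydatin, 37.3 in DSS and 31.9 in control. It was the 1 higher gene of the 19 in DSS with polydatin against DSS (5.26%, beside 5.39% of all genes). Of 13 genes that process or modulate the sensors 1 was higher in DSS against control (7.69%, beside 9.45%) and 2 in DSS with polydatin against control (15.4%, beside 16.0%). CREB3L3, a liver and gut relative of CREB3, had 368 counts in DSS with polydatin, 296 in DSS and 66 in control, with ratios of 4.40 (3.36 to 5.83) in DSS against control and 5.81 (4.46 to 7.67) in DSS with polydatin against control. WFS1, an ER membrane protein, was higher in DSS with polydatin than in control at 1.53 (1.30 to 1.80), a call lost at 1.49 with DESeq2 size factors and at 1.19 with the trend removed.

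The 15 genes of the PERK arm and its downstream targets ranged from 0.221 to 2.13 in DSS against control, where the members ranged from 0.569 to 1.83. In that comparison 2 were higher (13.3%, beside 9.45% of all genes) and 5 lower (33.3%, beside 5.81%), with a median log2 ratio of −0.30. Of the lower genes, ASNS had 20 counts in DSS and 61 in control, and NUPR1 had 7 and 31. Among genes of at least 10 CPM in 1 library, 2 of 13 were higher (beside 7.43%) and 3 lower (beside 4.34%). The library with polydatin had 6 of the 15 higher than in DSS (40.0%, beside 5.39% of all genes) and 0 lower (beside 2.60%), with a median of 0.49. That count was 3 of 15 with the GC and length trend removed, since TRIB3, CEBPB and DDIT4 lost their calls, beside 4.35% of all genes. ASNS kept its call with the trend removed, at 41 counts in DSS with polydatin and 20 in DSS. At 10 CPM or more ASNS dropped out, and 5 of 13 were higher, beside 2.35%. Against control, DSS with polydatin had 4 higher (26.7%, beside 16.0%) and 3 lower (20.0%, beside 12.4%), with a median of 0.03. Both this list and the members were chosen with earlier results of these data known, and the difference between them was not tested. Many of these targets also answer to other kinases of eIF2α, for instance in amino acid shortage. EIF2AK3, which encodes PERK itself, had 88.1 CPM in DSS with polydatin, 68.1 in DSS and 50.7 in control, and was higher in DSS with polydatin than in control at 1.74 (1.60 to 1.89).

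Several of the targets were lowest in the DSS library. DDIT4, an inhibitor of mTORC1, had 573 counts in DSS with polydatin, 397 in DSS and 990 in control, and SESN2, another, had 411, 312 and 569 in that order. CHAC1, which degrades glutathione, had 156 counts in DSS with polydatin, 52 in DSS and 205 in control. The ratio of CHAC1 was 3.19 (2.32 to 4.45) in DSS with polydatin against DSS and 0.249 (0.180 to 0.339) in DSS against control. CEBPB, a transcription factor, was higher in DSS with polydatin than in DSS at 1.51 (1.34 to 1.70). That call was lost at 1.498 with DESeq2 size factors and at 1.31 with the GC and length trend removed, and the call of DDIT4 at 1.53 (1.35 to 1.75) was lost at 1.46 with the trend removed. ATF4 and DDIT3 (CHOP), the factors in the middle of the arm, were not called. ATF4 had 544 CPM in DSS with polydatin, 441 in DSS and 532 in control, and DDIT3 had 19.3, 13.3 and 16.4 CPM. The ratio of DDIT3 in DSS with polydatin against DSS was 1.45 (1.22 to 1.71), which became 1.54 and a call with total-count scaling.

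Others were highest in DSS with polydatin and lowest in control. ATF3, a stress-induced factor, had 1110 counts in DSS with polydatin, 569 in DSS and 262 in control, and was higher in each of the 3 comparisons. TRIB3, a pseudokinase, had 3029, 2021 and 1724 counts, and PPP1R15A (GADD34), which returns eIF2α to its unphosphorylated state, had 1508, 1292 and 815 counts in the same order. TRIB3 was higher in DSS with polydatin than in DSS at 1.59 and than in control at 1.83, and PPP1R15A was higher in DSS with polydatin than in control at 1.93 (1.77 to 2.10) and in DSS than in control at 1.55 (1.42 to 1.70). With the trend removed PPP1R15A kept its call in DSS with polydatin against control and lost that in DSS against control at 1.40, while both calls of TRIB3 were lost at 1.44 and 1.43. EIF2S1, which encodes eIF2α, ran the other way and was lower in DSS with polydatin than in control at 0.633 (0.594 to 0.674), a call lost at 0.682 with total-count scaling and at 0.671 with the trend removed. The plot of the lists sets these genes beside the members.

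**Figure D4:**
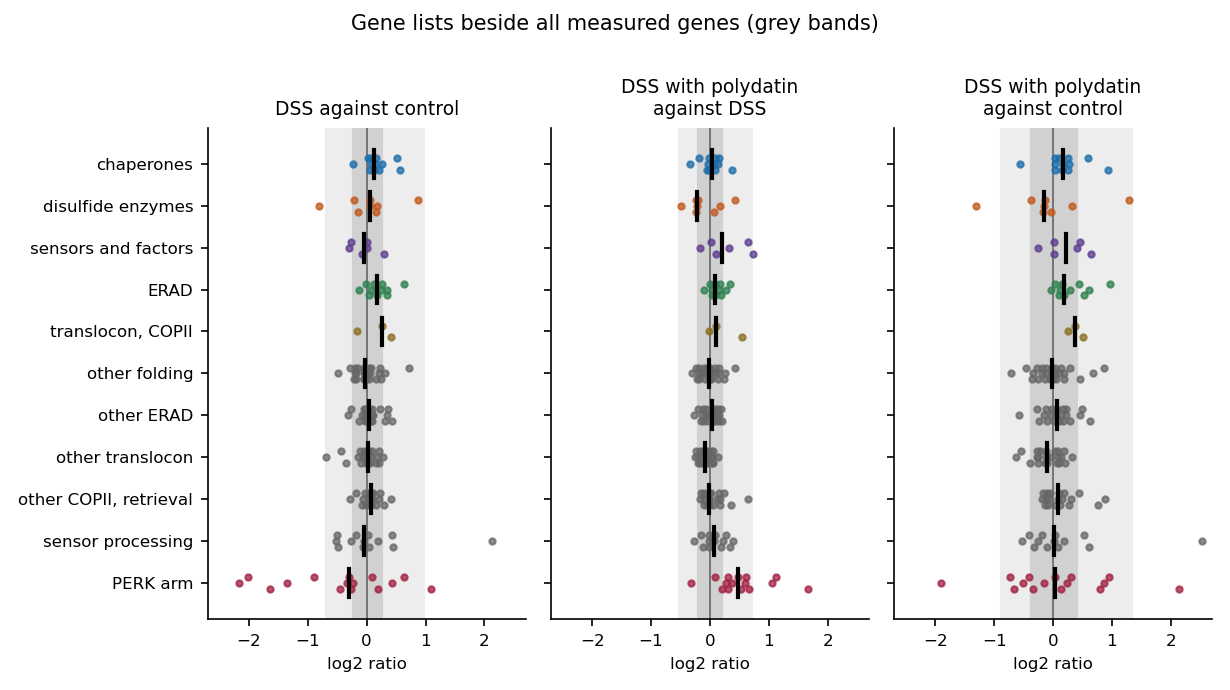
Log2 ratios of each measured gene in the 5 groups of members (coloured, top) and in 6 lists of other genes (grey, with the PERK arm in dark red), in 3 comparisons; black bars are list medians and grey bands hold the middle 50% and 90% of all measured genes. The PERK arm median lies at −0.30, 0.49 and 0.03 from left to right, while the medians of the members' groups stay between −0.21 and 0.37.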

How the data were processed

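Gene-level RNA read counts of 3 Caco-2 libraries, 1 per group, were analysed. The deposited table holds raw, unnormalized counts, whole numbers for each Ensembl gene. Reads were aligned with HISAT2 to GRCh38, per the submitters' processing notes, while the counter, its annotation and its use of strand were not given in the sources used here. No sample column was set aside (0 unused). Symbols were matched for 60463 identifiers. Coordinates, transcript lengths and overlaps came from GENCODE release 29 on GRCh38, and promoter windows from RefSeq.

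Counts were scaled with TMM factors from edgeR 4.0.16 (R 4.3.3), which were 1.05 for DSS with polydatin, 0.984 for DSS and 0.971 for control. A CPM of 1 corresponded to 17.4, 18.5 and 18.2 counts in these libraries, and 3 counts, the limit that a count of 0 allows, to 0.172, 0.162 and 0.165 CPM. Ratios of scaled counts and their exact 95% Clopper-Pearson intervals were computed in Python 3.11.15 with scipy 1.17.1, with 0.5 added to both counts where either was 0, and were checked on simulated counts. Levels per kb use the longest principal (APPRIS) transcript. The alternatives were scaling by library totals, size factors from DESeq2 1.42.0, other filters, a 2-fold rule, 2 added counts, means in place of medians and removal of a GC and length trend (statsmodels 0.14.6). Figures were drawn with matplotlib 3.10.9.

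The members and lists were chosen with earlier results of these data known. Full values are given for HSPA5, XBP1, ERN1, ATF6 and each member called in any comparison. Of each other list, up to 3 genes per direction and comparison at a CPM of at least 5 are named. HSP90B1, SEC61A1, SEC24D, ATF4, DDIT3, ASNS, NUPR1, LYZ, ITGAM, LUM, PDGFRB and the remaining members given with values were chosen after their values were seen.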

Additional observations from a re-analysis of the deposited data

How the results depend on the processing

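With 3 libraries of 1 per group, no replicate could be left out. No paired analysis was possible because each group had 1 library. In DSS against control, a CPM of at least 10 left 1 member higher and 0 lower (beside 7.43% and 4.34% of all genes). The 2-fold rule left 0 higher and 0 lower there (beside 4.24% and 1.76%). In DSS with polydatin against DSS, 1 member was higher at a CPM of at least 10 (beside 2.35% of all genes). In that comparison 0 were higher under the 2-fold rule (beside 1.94%) and 0 with the GC and length trend removed (beside 4.35%). Total-count scaling added SEC24D to the higher members of that comparison (beside 7.61%). In DSS with polydatin against control, DESeq2 size factors gave 2 lower members (beside 13.7% of all genes) and 4 higher (beside 15.1%), and a CPM of at least 10 gave 0 lower (beside 13.0%). In the same comparison the 2-fold rule left 1 member higher (beside 8.53%) and 1 lower, AGR3 (beside 3.27%). Removal of the trend left 3 higher (beside 12.2%). Total-count scaling added SELENOS and SEC61A1 to the higher members of this comparison (beside 19.9%). The median log2 ratio of members there was 0.27 with total-count scaling, where the median over all genes moved by 0.11. The stricter filter and the 2-fold rule call fewer genes by construction. For the trend, the size factors and total-count scaling the cause was not tested. Of 1872 recomputed single-gene values 289 moved beyond their counting interval, and 0 called values reversed. Low counts limit the precision for AGR3, ERO1B, CREB3L1 and DERL3, at 24 to 146 counts, and ERN2 had 0.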
